A study of Mus musculus with 4 samples.

Results

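The lectin-like receptors of natural killer (NK) cells described here are 9 genes chosen by symbol: Klra4, Klra8, Klra7, Klrb1c, Klre1, Klrk1, Klrd1, Klrc1 and Klrg1. They are 9 of the 54456 gene symbols measured, and 9 of the 31 symbols that begin with Klr. All 9 were found in the gene lists, and their transcripts were counted in liver lymphocytes that resembled NK cells, type 1 innate lymphoid cells (ILC1), NKT cells and CD8 T cells.

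The cells came from non-parenchymal suspensions of livers of C57BL/6J mice aged 30 weeks, profiled by 10x Genomics 3′ single-cell RNA sequencing with 1 library per group. HFD_EXE was read as a high fat diet (HFD) with exercise, HFD_sed as a high fat diet without exercise and S as the library whose label names no high fat diet, since the labels do not spell these letters out. The suspensions had passed red cell lysis and dead cell removal. The sex of the mice, the number of animals per library and the length of diet and exercise are not stated in the labels, and the matrix of the fourth group, E, was not analysed here. With 1 library per group, animal, dissociation and group cannot be told apart, nothing was tested between groups, and the 95% intervals given with values cover counting error only.

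Levels are given as CPM, the unique molecular identifiers (UMIs, each marking a captured transcript) of a gene per 1000000 UMIs of the cells of a class. HFD_EXE, HFD_sed and S held 11280, 11752 and 11660 barcodes and 60901242, 63456399 and 84666844 UMIs, and 10166, 10737 and 10217 cells were kept. Of these, 49, 124 and 174 were NK-like, 38, 44 and 67 ILC1-like, 366, 126 and 432 NKT-like and 173, 1634 and 119 CD8 T-like. The classes were clusters built without any Klr gene. Of NK-like cells 71.5% held a UMI of Eomes and 4.61% one of Cd3e, and of ILC1-like cells 4.03% held Eomes, 66.4% Itga1 and 90.6% Ncr1. The NKT-like class was mostly cluster 7 in HFD_EXE (321 cells) and mostly cluster 1 in HFD_sed (118 cells) and S (428 cells). The CD8 T-like cells of HFD_sed were mostly cluster 0 (1124 cells), which held 16 cells of HFD_EXE and 10 of S, so CD8 T-like cells are compared between libraries within cluster 4 (117, 266 and 74 cells) and cluster 8 (40, 244 and 35 cells).

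NK cells read the surface of other cells through activating and inhibitory receptors, and in the mouse most of these are C-type lectin-like proteins encoded side by side in the NK gene complex on chromosome 6. Ly49 receptors bind classical MHC class I molecules and are switched on in some NK cells and not in others, so that each cell carries its own combination. NKG2D binds stress-induced ligands, CD94 paired with NKG2A binds the non-classical molecule Qa-1, and KLRG1 binds cadherins. In the liver, NK cells share the sinusoids with ILC1, which lack Eomes, and with NKT cells, T cells that carry the NK receptor NK1.1.

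The Ly49 genes set NK-like cells apart from ILC1-like cells. Klra4 (Ly49D) and Klra8 (Ly49H) encode activating receptors that signal through DAP12, and Klra7 (Ly49G) an inhibitory one. Their upstream sequences are shown because the levels of Klra4 and Klra8 were the most restricted to 1 class, and because the 3 windows are near copies of each other. The 150 bases before the RefSeq start of each gene (build GRCm38.p6, chromosome 6, minus strand) read as follows, with capitals marking stretches of 11 and 14 bases that all 3 share.
Klra4, chr6:130067272-130067421: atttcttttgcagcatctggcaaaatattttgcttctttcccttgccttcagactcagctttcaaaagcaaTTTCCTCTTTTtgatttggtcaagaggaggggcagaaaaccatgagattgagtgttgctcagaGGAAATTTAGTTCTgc
Klra8, chr6:130129899-130130048: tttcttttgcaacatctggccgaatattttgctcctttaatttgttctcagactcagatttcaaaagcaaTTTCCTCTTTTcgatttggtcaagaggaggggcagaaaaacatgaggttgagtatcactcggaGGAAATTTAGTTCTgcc
Klra7, chr6:130233323-130233472: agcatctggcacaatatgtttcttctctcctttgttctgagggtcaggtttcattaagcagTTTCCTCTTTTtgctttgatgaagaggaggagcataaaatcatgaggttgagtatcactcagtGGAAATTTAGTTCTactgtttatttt

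Over the 250 bases before the start, Klra4 and Klra8 were identical at 212 of 249 aligned bases (85.1%), Klra4 and Klra7 at 196 of 236 (83.1%), and Klra7 and Klra8 at 197 of 238 (82.8%). The 14-base stretch occurred in 5 of the 32851 RefSeq windows of the same length, those of Klra4, Klra6, Klra7 and Klra8, and the 11-base stretch in 27. Such a match is a description of the letters and not a binding site.

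Klra4 was close to a marker of NK-like cells in each library. It stood at 656 CPM (95% interval 552 to 775) in HFD_EXE, 736 CPM (659 to 819) in HFD_sed, with 779 CPM (719 to 842) in S. None of the ILC1-like cells of any library held a Klra4 UMI, and NKT-like and CD8 T-like cells together held 1 UMI in NKT-like cells of S and 1 in CD8 T-like cells of HFD_sed. The 0 UMIs of ILC1-like cells had upper 95% limits of 17.0, 15.8 and 10.0 CPM in HFD_EXE, HFD_sed and S. Set at 3 counts per library (13.8, 12.8 and 8.15 CPM), they put Klra4 47.5-fold, 57.3-fold and 95.5-fold higher in NK-like cells. These folds leave out the counting error of the NK-like level.

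Klra8, which in C57BL/6 mice recognises a cytomegalovirus protein, showed the same restriction with a few exceptions. NK-like cells held 666 CPM (560 to 785), 618 CPM (548 to 695) and 850 CPM (788 to 916) in HFD_EXE, HFD_sed and S. ILC1-like cells held 92.1 CPM (56.3 to 142), 4.28 CPM and 32.6 CPM (16.9 to 57.0), from 20, 1 and 12 UMIs. These UMIs lay in 3, 1 and 1 cells, so the ILC1-like level was set by a handful of cells. The 3 Klra8 cells of HFD_EXE had UMIs of Itga1, Cxcr6 or Il7r, all 3 held Klra9, and none held Eomes or Klra4. NKT-like cells held 0, 0 and 3 Klra8 UMIs, and CD8 T-like cells none.

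Klra7 was spread more widely. NK-like cells held 246 CPM (183 to 322) in HFD_EXE, 263 CPM (219 to 315) in HFD_sed, with 280.5 CPM (245 to 319) in S, and ILC1-like cells 9.21, 42.8 and 10.9 CPM from 2, 10 and 4 UMIs. Cluster 4 of the CD8 T-like cells, led by Dmrta1 and Ly6c2 over other lymphocytes and with Il7r in 94.5% of its cells, held 124 CPM (101 to 151), 33.4 CPM (24.5 to 44.4) and 158 CPM (126 to 195). Klra7 was thus the Ly49 gene of the 3 that T cells also carried, and it was low in cluster 4 of HFD_sed. A cluster without a name, cluster 5, held more still, at 238, 438 and 605 CPM over 14, 295 and 88 cells. Its leading genes over other lymphocytes were Klra6, Trdc, Klra7, Klra1, Klra3 and Klra9, and 87.7% of its cells held Cd3e, 52.4% Cd8a, 3.53% Cd8b1 and 40.1% Trdc. Klra4 and Klra8, in contrast to Klra7, were almost absent there, with 0, 1 and 4 Klra4 UMIs.

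**Figure D1:**
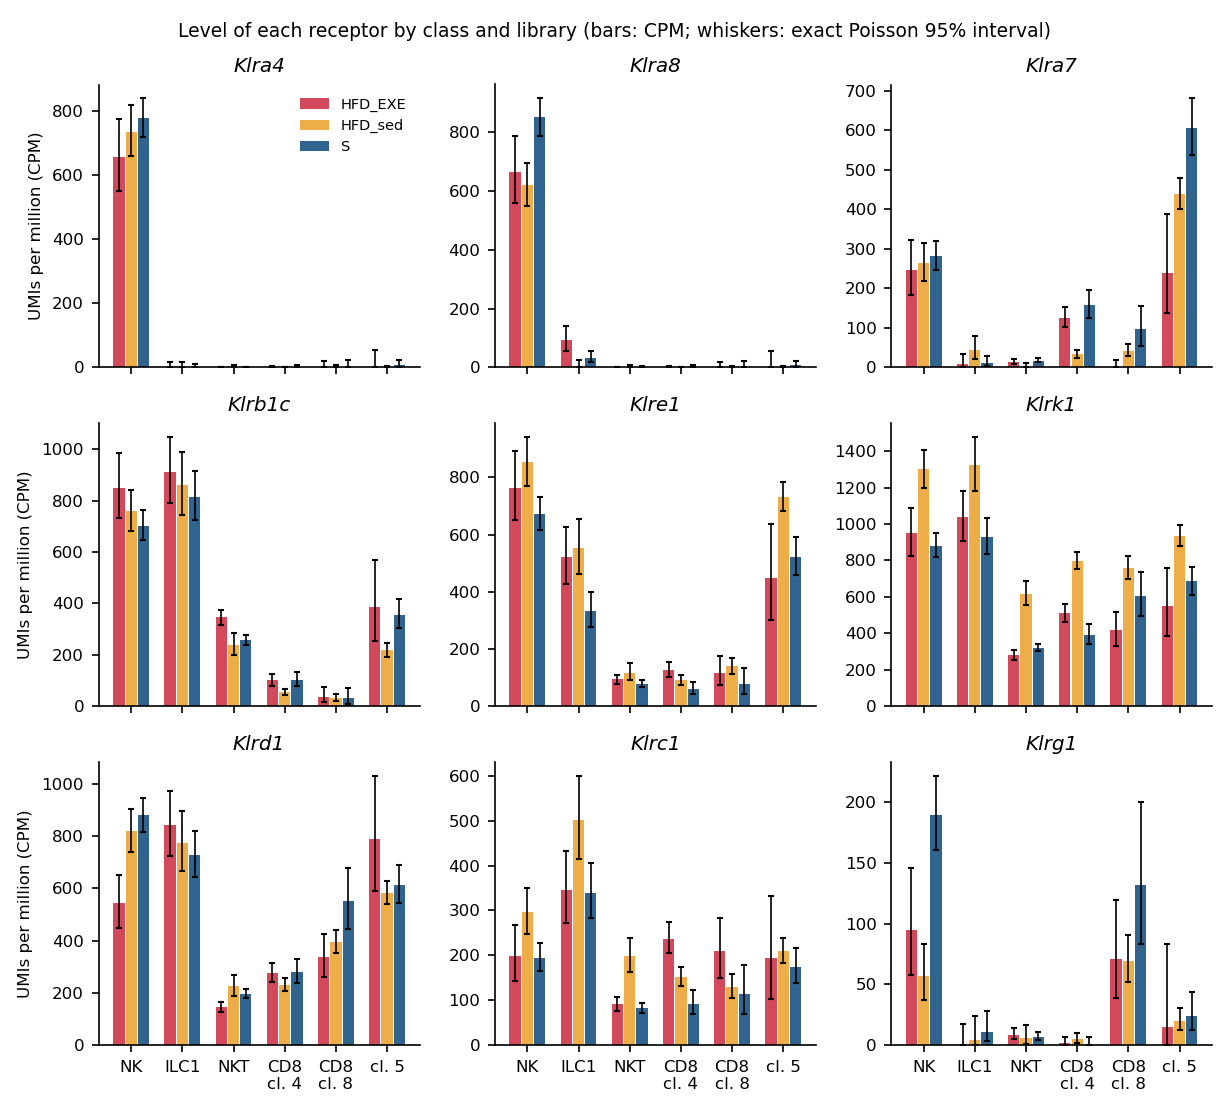
Level of each receptor in CPM (vertical axes, differing between panels) in NK-like, ILC1-like and NKT-like cells, CD8 T-like clusters 4 and 8 and the unnamed cluster 5; bars are 1 library each and whiskers exact Poisson 95% intervals. Klra4 and Klra8 stand high in NK-like cells alone, with 656 to 779 and 618 to 850 CPM, while Klrb1c and Klrk1 reach similar heights in NK-like and ILC1-like cells, and Klrd1 of HFD_EXE is lower in NK-like cells, at 543 CPM, than in ILC1-like cells, at 843 CPM.

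Klrb1c and Klrk1 were carried at similar levels by NK-like and ILC1-like cells, and Klrd1 was in HFD_sed and S. Klrb1c encodes NK1.1, the activating receptor that defines NK cells in C57BL/6 mice. It stood at 850 CPM (730 to 983), 758 CPM (680 to 842) and 702 CPM (646 to 762) in NK-like cells of HFD_EXE, HFD_sed and S, and at 912, 860 and 815 CPM in ILC1-like cells. The intervals of the 2 classes overlapped in each library. NKT-like cells held less, at 345 CPM (318 to 375), 239 CPM (200 to 284) and 258 CPM (239 to 278), and CD8 T-like cluster 4 held 100.5, 53.9 and 103 CPM. The order NK-like or ILC1-like, then NKT-like, then CD8 T-like was the same in the 3 libraries.

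Klrk1 encodes NKG2D, which signals through DAP10 and is also found on activated CD8 T cells of the mouse. NK-like cells held 949 CPM (822 to 1090), 1300 CPM (1198 to 1408) and 882 CPM (819 to 949) in HFD_EXE, HFD_sed and S, and ILC1-like cells 1036, 1323 and 930 CPM. NKT-like cells held 280 CPM (255 to 307), 618 CPM (554 to 689) and 322 CPM (300 to 344). CD8 T-like cluster 4 held 510, 797 and 392 CPM, and cluster 8, with Cx3cr1 and Zeb2 among its leading genes, 417, 757 and 607 CPM. HFD_sed was the highest library in each of these classes, and its interval was apart from those of the other libraries in NK-like and NKT-like cells and in cluster 4.

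Klrd1 encodes CD94, the partner of the NKG2 chains. It stood at 543 CPM (448 to 652) in NK-like cells of HFD_EXE, against 819 CPM (738 to 906) in HFD_sed, with 881 CPM (817 to 948) in S. ILC1-like cells held 843, 775 and 728 CPM, and NKT-like cells 145 CPM (127 to 164), 224 CPM (186 to 268) and 196 CPM (179 to 214). NK-like cells of HFD_EXE were the low point among the NK-like and ILC1-like values, and their interval did not reach those of the other libraries.

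Klrc1 encodes NKG2A, the inhibitory chain that pairs with CD94, and it was the member called lower in NK-like than in ILC1-like cells of each library. NK-like cells held 198 CPM (143 to 268), 296 CPM (248 to 350) and 194 CPM (165 to 227) in HFD_EXE, HFD_sed and S, and ILC1-like cells 345, 501 and 340 CPM. NK-like cells were 1.74-fold, 1.69-fold and 1.75-fold lower than ILC1-like cells, with log2 ratios of −0.80 (−1.38 to −0.24), −0.76 (−1.13 to −0.39) and −0.81 (−1.15 to −0.46). NKT-like cells held 90.3 CPM (76.4 to 106), 198 CPM (162 to 240) and 82.4 CPM (71.8 to 94.0), so HFD_sed stood apart there. In CD8 T-like cluster 4 the order was another, with 237 CPM (205 to 274) in HFD_EXE, 151 CPM (132 to 173) in HFD_sed, with 91.9 CPM (68.0 to 122) in S. Part of the Klrc1 count is uncertain, because 21.9% of the 90-base stretches in the last 500 bases of its transcripts (GENCODE vM21) also occur in Klrc2, which encodes the activating chain NKG2C; the same share was 6.57% for Klra7 (with Klra13-ps) and 11.4% for Klrb1c (with Gm44511 and Klrb1a), and 0 for the other 6 members. How the counting treated such reads, or the strand, is not given in the sources used here. Klrc2 itself stood at 543, 581 and 380 CPM in NK-like cells and 783, 608 and 408 CPM in ILC1-like cells.

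Klre1 encodes a receptor that in mice pairs with KLRI1, in an inhibitory form, or KLRI2, in an activating form. It stood at 765, 853 and 673 CPM in NK-like cells of HFD_EXE, HFD_sed and S, at 520 CPM (429 to 626), 552 CPM (461 to 656) and 334 CPM (278 to 399) in ILC1-like cells, and at 93.4, 118 and 79.0 CPM in NKT-like cells. NK-like cells were highest in each library, and the ILC1-like cells of S were the lowest of the ILC1-like values. Of its partners, Klri2 stood at 340, 340 and 335 CPM in NK-like cells and 207, 197 and 152 CPM in ILC1-like cells, while Klri1 had 0, 1 and 1 UMIs in NK-like cells.

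Klrg1, an inhibitory receptor of terminally differentiated NK and T cells, was the scarcest member in NK-like cells. It stood at 94.4 CPM (57.7 to 146) in HFD_EXE, 56.6 CPM (37.0 to 82.9) in HFD_sed, with 189 CPM (161 to 222) in S, from 20, 26 and 154 UMIs. ILC1-like cells held 0, 1 and 4 UMIs. CD8 T-like cluster 8 held 71.2, 69.1 and 132 CPM, and cluster 4 held 1, 7 and 0 UMIs. S was thus the highest library in both NK-like cells and cluster 8. Outside these classes, Treg-like cells held 134 CPM (99.8 to 176) in HFD_sed, with 293 CPM (230 to 368) in S, while the 11 Treg-like cells of HFD_EXE held none, which allows up to 69.7 CPM.

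RefSeq windows were at hand for 7 of the 9 members, and not for Klrd1 and Klrg1. The core letters bound by RUNX factors, TGTGGT or ACCACA on the other strand, were searched because Runx3 is active in NK and CD8 T cells. They occurred within 250 bases before the start of Klrb1c, Klrk1, Klre1 and Klrc1, and not in the windows of Klra4, Klra7 and Klra8. Among all windows 4614 of 32851 (14.0%) held these letters, beside 4 of 10 windows of the members. Counted by symbol, 4303 of 27025 (15.9%) held them, beside 4 of the 7 members. The 4 windows are printed 5′ to 3′ in build GRCm38.p6, with the letters in capitals, at 89, 129, 229 and 87 bases before the start of Klrb1c, Klrk1, Klre1 and Klrc1.
Klrb1c, chr6:128788678-128788777, minus strand: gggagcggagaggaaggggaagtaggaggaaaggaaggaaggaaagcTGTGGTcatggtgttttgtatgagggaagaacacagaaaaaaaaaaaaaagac
Klrk1, chr6:129623941-129624040, minus strand: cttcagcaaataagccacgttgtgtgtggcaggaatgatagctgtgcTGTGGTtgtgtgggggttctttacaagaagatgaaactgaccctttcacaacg
Klre1, chr6:129577963-129578062, plus strand: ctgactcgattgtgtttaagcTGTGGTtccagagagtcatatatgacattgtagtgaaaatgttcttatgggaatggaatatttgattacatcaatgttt
Klrc1, chr6:129679008-129679107, minus strand: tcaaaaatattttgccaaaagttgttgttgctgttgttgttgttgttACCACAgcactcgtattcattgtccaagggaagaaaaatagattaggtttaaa

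Summed, the 9 receptors made up 4967, 5700 and 5431 CPM of the transcripts of NK-like cells in HFD_EXE, HFD_sed and S, 3757, 4062 and 3202 CPM of ILC1-like cells and 976, 1405 and 962 CPM of NKT-like cells. CD8 T-like cluster 4 held 1375, 1362 and 1086 CPM and cluster 8 held 1185, 1566 and 1610 CPM. The unnamed cluster 5 lay between ILC1-like cells and these T cell classes, at 2620, 3139 and 2998 CPM. B-like cells held 9.4, 17.0 and 8.01 CPM and sinusoidal endothelium-like (LSEC-like) cells 6.15, 11.5 and 7.66 CPM.

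A member was called higher or lower between 2 classes or libraries where the ratio was at least 1.5, its interval excluded 1 and both together held at least 20 of its UMIs. Between classes of 1 library, all 9 members were called higher in NK-like than in NKT-like cells of HFD_EXE and S and 8 in HFD_sed, where 7.74%, 11.3% and 10.8% of all measured genes were called higher. The exception was Klrc1 in HFD_sed, with a log2 ratio of 0.58. The median log2 ratio of the members was 3.03 in HFD_EXE, 2.86 in HFD_sed and 3.09 in S, beside −0.02, 0.03 and −0.01 over all measured genes. Over CD8 T-like cells, 8, 9 and 9 members were called higher in NK-like cells of HFD_EXE, HFD_sed and S (11.6%, 9.22% and 13.8% of all genes), and Klrc1 in HFD_EXE was the exception at −0.14. No member was called lower in NK-like than in NKT-like cells (6.41%, 8.25% and 10.6% of all genes) or than in CD8 T-like cells (4.75%, 6.3% and 7.41%). The clusters were made without Klr genes but with genes that go with them, so these ratios describe the classes.

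Over ILC1-like cells, 4, 5 and 5 members were called higher in NK-like cells of HFD_EXE, HFD_sed and S (7.74%, 7.14% and 6.68% of all genes), namely Klra4, Klra7, Klra8 and Klrg1 and, in HFD_sed and S, Klre1. Members called lower in NK-like cells numbered 2, 1 and 1 (8.9%, 6.3% and 8.47% of all genes). These were Klrc1 in each library and Klrd1 in HFD_EXE, whose log2 ratio was −0.63 (−0.98 to −0.29). Klrb1c and Klrk1 were not called in any library, with log2 ratios of −0.10, −0.18 and −0.22 for Klrb1c and −0.13, −0.03 and −0.08 for Klrk1. The members thus fell into 4 with high NK-like levels, 1 with a high ILC1-like level and the rest at like levels or with calls that differed by library.

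**Figure D2:**
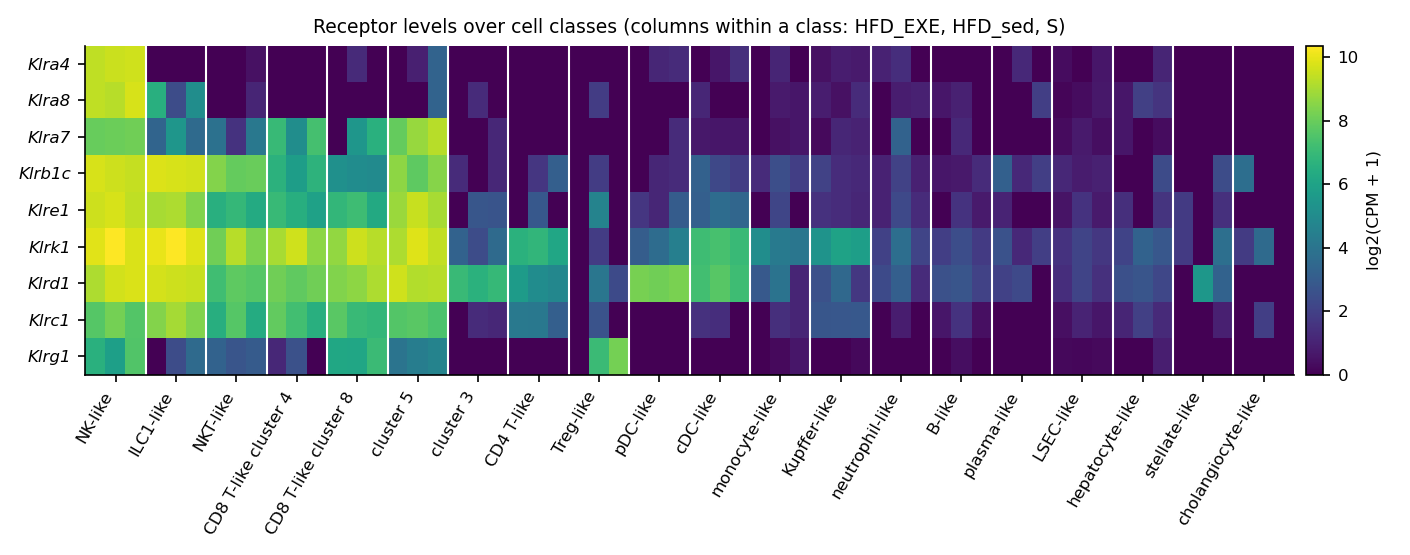
Heat map of log2(CPM + 1) of the 9 receptors (rows) over cell classes (columns, with HFD_EXE, HFD_sed and S from left to right within a class). Klrd1 in dendritic cells, at 280 to 313 CPM in pDC-like and 143 to 201 CPM in cDC-like cells, Klrk1 in cDC-like cells and Klrg1 in Treg-like cells stand out outside the NK, ILC and T classes.

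Outside lymphocytes, Klrd1 was the member with the highest level. Plasmacytoid dendritic cell-like (pDC-like) cells held 303, 280 and 313 CPM in HFD_EXE, HFD_sed and S, and conventional dendritic cell-like (cDC-like) cells 148, 201 and 143 CPM, beside 4.97, 5.66 and 3.13 CPM in B-like cells. Within cDC-like cells, those with a UMI of Cd209a, a gene of type 2 cells, held 297, 352 and 333 CPM (30, 118 and 29 cells), and those with Xcr1 or Clec9a, genes of type 1 cells, 73.1, 83.1 and 63.5 CPM (55, 121 and 59 cells). Klrk1 stood at 141, 161 and 129 CPM in cDC-like cells.

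Among NK-like cells, Klra4 and Klra8 were unevenly distributed from cell to cell, and Klre1 was not. To compare shares, each cell was thinned to 1500 UMIs, which left out 0, 3 and 3 NK-like cells. Klra4 was then seen in 46.9%, 42.1% and 44.4% of NK-like cells of HFD_EXE, HFD_sed and S (51%, 49.2% and 52.9% unthinned), although the same UMIs placed at random over the cells would have reached 70.6%, 68.0% and 67.5%. Klra8 was seen in 46.9%, 38.0% and 50.9%, where random placing would give 60.1%, 60.7% and 73.6%. Klre1, in contrast, was seen in 67.3%, 76% and 62.6% against 67.5%, 74.2% and 62.8% for random placing. Klra7 was seen in 28.6%, 22.3% and 25.7%, where random placing would give 27.9%, 29.9% and 34.0%. Klrk1 was seen in 79.6%, 79.3% and 71.3% (random placing 76.5%, 85.9% and 72.1%). The shares were 61.2%, 67.8% and 74.3% for Klrd1 (random placing 53.0%, 72.9% and 76.3%). For Klrb1c they were 65.3%, 63.6% and 64.3% (random placing 70.0%, 71.8% and 67.8%). Klrc1 was seen in 12.2%, 32.2% and 18.1%, below random placing in each library (21.7%, 36.0% and 22.2%). Klrg1 was seen in 14.3%, 9.09% and 21.1% (random placing 15.1%, 8.69% and 23.1%). In B-like cells, which should lack them, no member reached more than 0.940% of cells.

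A typical NK-like cell showed UMIs of 4 of the 9 receptors, with means of 4.22 ± 1.54, 4.31 ± 1.30 and 4.33 ± 1.29 (SD over 49, 121 and 171 thinned cells). The median was 3 in ILC1-like and 1 in NKT-like cells of each library. None of Klra4, Klra7 and Klra8 was seen in 34.7%, 33.9% and 22.2% of NK-like cells, 1 in 18.4%, 35.5% and 42.1%, 2 in 36.7%, 24.8% and 28.1%, and all 3 in 10.2%, 5.79% and 7.60%. If the genes were placed independently, the product of their shares would give none in 20.1%, 27.9% and 20.3% and all 3 in 6.30%, 3.58% and 5.82%. Cells with Klra4 held Klra8 in 69.6%, 51% and 53.9% of cases, and cells without it in 26.9%, 28.6% and 48.4%. Both genes of this activating pair were seen in 32.7%, 21.5% and 24% of cells, beside products of 22%, 16% and 22.6%, so the excess over the product lay in HFD_EXE and HFD_sed.

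**Figure D3:**
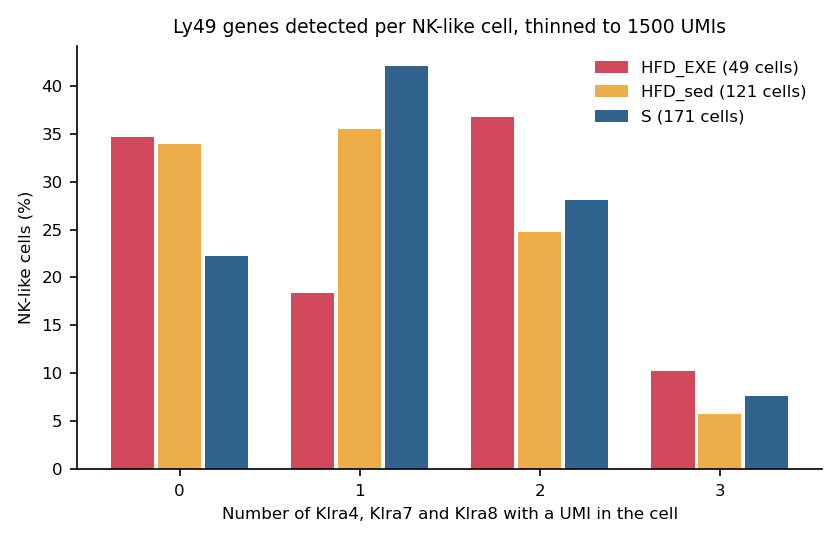
Share of NK-like cells (vertical axis, %) with UMIs of 0, 1, 2 or 3 of the genes Klra4, Klra7 and Klra8 (horizontal axis), each cell thinned to 1500 UMIs, with 1 bar per library. Cells with none made up 34.7% of HFD_EXE, 33.9% of HFD_sed and 22.2% of S.

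The share of NK-like cells with Klrc1 was lower among cells with Klra4 or Klra8 than among cells without them in each library, with intervals that overlapped in all but 1 case. In NK-like cells with Klra4, Klrc1 was seen in 1 of 23, 11 of 51 and 6 of 76 cells of HFD_EXE, HFD_sed and S (4.35%, 21.6% and 7.89%), against 5 of 26, 28 of 70 and 25 of 95 cells without Klra4 (19.2%, 40.0% and 26.3%). The Clopper-Pearson intervals of cells with and without Klra4 did not overlap in S (2.95% to 16.4% and 17.8% to 36.4%), and overlapped in HFD_EXE and HFD_sed. With Klra8 the shares were 8.70%, 19.6% and 13.8%, against 15.4%, 40.0% and 22.6% without it. Klra7 went the other way in HFD_sed, with 37.0% of cells with it and 30.9% of cells without it, while in HFD_EXE and S the shares were 7.14% and 13.6% with it, against 14.3% and 19.7% without it. Klrd1 showed no such split, at 52.2%, 74.5% and 71.1% of cells with Klra4, against 69.2%, 62.9% and 76.8% without it. The lower share of Klrc1 was not particular to cells with Klra4 or Klra8. Klre1 is not a Ly49 gene, and cells with it also showed Klrc1 less often than cells without it in each library. Whether the split by Klra4 or Klra8 differed from that by Klre1 was not tested.

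**Figure D4:**
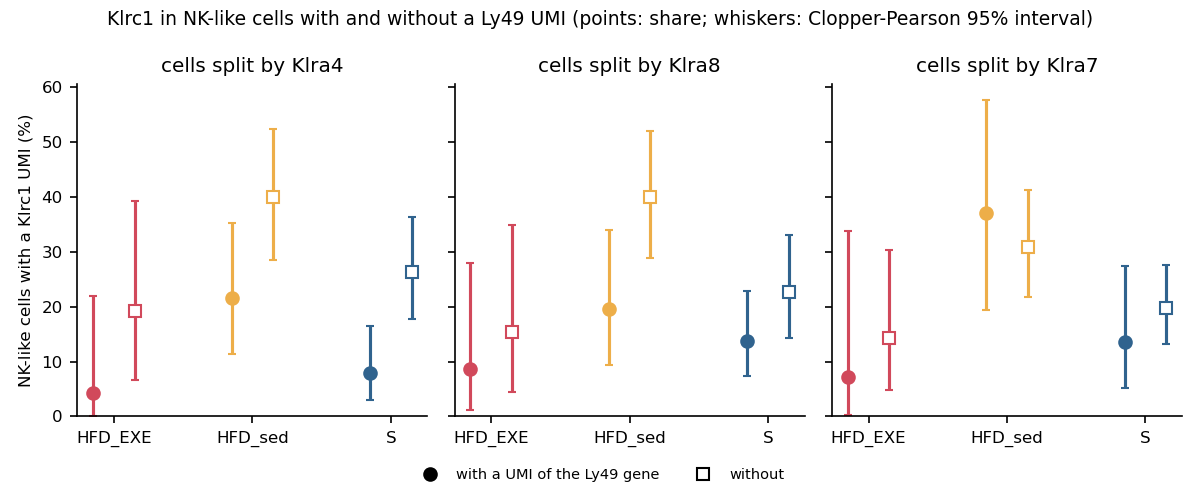
Share of NK-like cells with a Klrc1 UMI (vertical axis, %) among cells with (filled circles) and without (open squares) a UMI of Klra4, Klra8 or Klra7, per library, with Clopper-Pearson 95% intervals. The filled point lies below the open one in all 3 libraries for Klra4 and Klra8, and above it in HFD_sed for Klra7.

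Between libraries, few members differed in NK-like cells by the rule above, and none of Klra4, Klra7 and Klra8 did. For HFD_EXE over HFD_sed, Klrd1 was called lower, with a log2 ratio of −0.59 (−0.91 to −0.29), and no member higher; 4.56% of the 4890 measured genes were called lower and 2.78% higher. The median log2 ratio was −0.16 over the 9 members and −0.05 over all genes. Klrc1, at −0.58 (−1.11 to −0.07), missed the ratio of 1.5, and Klrk1 stood at −0.45. The Klrd1 call lies at the edge of the rule: with doublets kept or with ratios centred on the median gene it was not made.

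For HFD_EXE over S, Klrd1 (−0.70, interval −0.99 to −0.41) and Klrg1 (−1.0, −1.76 to −0.33) were called lower and no member higher, beside 3.91% and 6.24% of all genes. For HFD_sed over S, Klrg1 was called lower at −1.74 (−2.40 to −1.14) and Klrc1 higher at 0.61 (0.27 to 0.95), beside 4.06% lower and 6.87% higher of all genes. The Klrc1 call was lost under 6 of 16 alternatives, among them Klr genes kept in the clustering, free RNA subtracted on the profile of the lowest-count barcodes and ratios centred on the median gene, and took the opposite sign, at −1.12, with the profile of the whole library. Both Klrg1 calls held under 15 of 16 and were lost with a gate on single transcripts, which left 6, 20 and 20 NK-like cells. Some of the 16 could not end a call, such as that without a minimum. The medians were −0.19 and −0.08 over the members and 0.01 and 0.06 over all genes. Klrk1, at 0.56 (0.40 to 0.72), lay just short of the ratio of 1.5. The 3 comparisons share their libraries and are not independent. Of Klra4, Klra7 and Klra8 none was called in NK-like cells in any of the 3 comparisons, with log2 ratios between −0.46 and 0.11. The lowest was Klra8 for HFD_sed over S, at 618 CPM (548 to 695) against 850 CPM (788 to 916). Those intervals were apart, and the ratio fell short of 1.5. Hepatocyte markers were high in S, at 250, 257 and 1237 CPM summed over 6 genes in NK-like cells of HFD_EXE, HFD_sed and S, at 276, 171 and 997 CPM in ILC1-like cells and at 344, 301 and 878 CPM in NKT-like cells, with none of the 6 at 0 in NK-like cells. The sum of 6 Kupffer cell markers in NK-like cells was 118, 118 and 435 CPM. The free RNA alternatives were scaled on the hepatocyte markers, but the part of either marker set in the ratios over S was not tested.

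In ILC1-like cells, Klre1 was called higher in both high fat diet libraries, at 0.64 (0.26 to 1.02) for HFD_EXE over S and 0.72 (0.36 to 1.09) for HFD_sed over S. Klra8 was called higher in HFD_EXE, at 4.43 (1.78 to 9.80) over HFD_sed and 1.5 (0.39 to 2.66) over S, from UMIs of the 3 cells described above. No member was called lower, beside 5.43%, 5.15% and 3.34% of all genes for HFD_EXE over HFD_sed, HFD_EXE over S and HFD_sed over S. Called higher were 1 of 6 measured members for HFD_EXE over HFD_sed (3.81% of all genes), 2 of 6 for HFD_EXE over S (5.43%) and 1 of 5 for HFD_sed over S (4.07%). The median over the members was 0.00, 0.19 and 0.51 in these comparisons, beside −0.01, 0.02 and 0.03 over all genes. ILC1-like cells were the smallest class, with 38 to 67 cells per library, and the Klre1 ratios over S took the opposite sign when cells were chosen by a gate on single transcripts, which left 8, 30 and 7 cells, at −0.60 for HFD_EXE and −2.38 for HFD_sed, and with free RNA subtracted on the profile of the whole library, at −0.65 and −0.31. With the gate Klra8 stood at −1.16 for HFD_EXE over S.

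In NKT-like cells, Klrk1 and Klrc1 were higher in HFD_sed than in either other library. For HFD_EXE over HFD_sed, Klrk1 stood at −1.14 (−1.35 to −0.93), Klrc1 at −1.13 (−1.50 to −0.76) and Klrd1 at −0.63 (−0.96 to −0.30), all called lower, and Klra7 at 2.85 (0.22 to 8.21), called higher. That made 3 of 6 measured members lower and 1 higher, beside 5.02% and 5.06% of all genes, and the median was −0.48 over the members and 0.00 over all genes. For HFD_sed over S, Klrc1 at 1.27 (0.92 to 1.61) and Klrk1 at 0.94 (0.76 to 1.13) were called higher and Klra7 at −3.18 (−8.51 to −0.63) lower, 2 and 1 of 7 measured members beside 6.14% and 4.46% of all genes. For HFD_EXE over S none of 7 was called, beside 7.41% higher and 5.24% lower. The Klra7 ratios changed sign with the choice of cells: for HFD_EXE over HFD_sed Klra7 stood at −2.27 with a gate on single transcripts, −0.19 with Klr genes kept in the clustering and −0.13 with free RNA subtracted on the profile of the whole library, and for HFD_sed over S at 2.32 with the gate and 0.047 with Klr genes kept.

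The NKT-like cells of HFD_EXE lay mostly in cluster 7 and those of the other libraries in cluster 1, so the ratios were also taken within cluster 1, an alternative chosen after seeing the data. There, with 45, 118 and 428 cells, Klrk1 stood at −1.08 (−1.45 to −0.71) and Klrc1 at −0.77 (−1.40 to −0.18) for HFD_EXE over HFD_sed, and at 0.94 (0.75 to 1.13) and 1.29 (0.94 to 1.63) for HFD_sed over S. All 4 were called as before. Of 5 measured members 2 were called lower and 1 higher for HFD_EXE over HFD_sed (4.43% and 3.63% of all genes), and of 6 measured 2 were called higher and 1 lower for HFD_sed over S (5.73% and 4.44%). For HFD_EXE over S 1 of 6 was called higher and none lower (4.65% and 3.37%). Calls made in cluster 1 and not in the whole class were Klrb1c at 0.68 (0.28 to 1.08) for HFD_EXE over HFD_sed and Klre1 at 0.64 (0.06 to 1.18) for HFD_EXE over S. Klrd1, at −0.55 (−1.11 to −0.02), was not. In the whole NKT-like class the Klra7 ratios rested on 22, 1 and 45 UMIs in 6, 1 and 8 cells, and cluster 1 held 5, 0 and 45 of these UMIs, so Klra7 was called lower there for HFD_sed over S and had too few UMIs for HFD_EXE over HFD_sed.

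**Figure D5:**
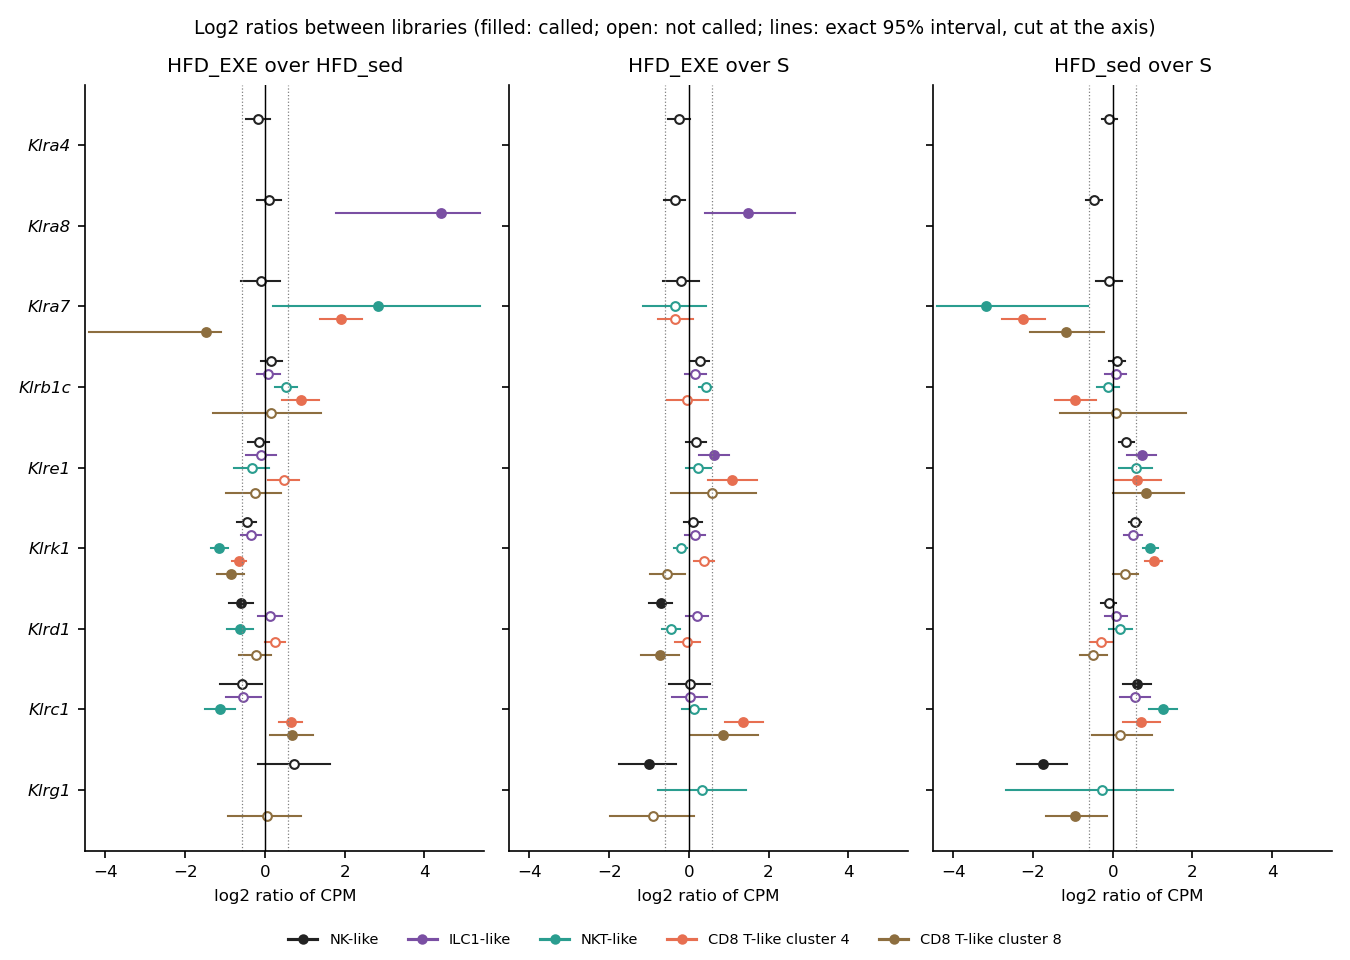
Log2 ratios of CPM (horizontal axes) of the 9 receptors for HFD_EXE over HFD_sed, HFD_EXE over S and HFD_sed over S, in NK-like, ILC1-like and NKT-like cells and CD8 T-like clusters 4 and 8; filled points are called higher or lower, open points are not, and lines are exact 95% intervals that stop at the axis. Klrk1 and Klrc1 of NKT-like cells lie at −1.14 and −1.13 for HFD_EXE over HFD_sed, and Klra7 of cluster 4 at 1.90.

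In cluster 4 of the CD8 T-like cells, Klra7 and Klrb1c were low in HFD_sed and Klrk1 was high. For HFD_EXE over HFD_sed, Klra7 stood at 1.90 (1.38 to 2.43), Klrb1c at 0.90 (0.43 to 1.37) and Klrc1 at 0.65 (0.36 to 0.94), called higher, and Klrk1 at −0.64 (−0.81 to −0.48), called lower. These were 3 and 1 of 6 measured members, beside 3.57% and 7.8% of all genes. For HFD_sed over S, Klra7 at −2.24 (−2.79 to −1.71) and Klrb1c at −0.94 (−1.46 to −0.41) were called lower and Klrk1 at 1.02 (0.81 to 1.24), Klrc1 at 0.72 (0.26 to 1.20) and Klre1 at 0.60 (0.03 to 1.20) higher, beside 3.37% and 7.62%. For HFD_EXE over S, Klrc1 at 1.37 (0.91 to 1.85) and Klre1 at 1.08 (0.49 to 1.70) were called higher and none lower, beside 4.16% and 3.88%. The median log2 ratio in cluster 4 was 0.57, 0.16 and 0.17 over the members for HFD_EXE over HFD_sed, HFD_sed over S and HFD_EXE over S, beside −0.10, 0.13 and 0.01 over all genes. Centred on the median gene, an alternative chosen after seeing the data, Klrk1 for HFD_EXE over HFD_sed and Klrc1 and Klre1 for HFD_sed over S were no longer called. After thinning, Klra7 was seen in 13% of cluster 4 cells of HFD_EXE, 2.67% of HFD_sed and 13.5% of S.

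In cluster 8, Klrc1 was called higher in HFD_EXE, at 0.68 (0.12 to 1.22) over HFD_sed and 0.87 (0.05 to 1.74) over S. With free RNA subtracted on the profile of the whole library these ratios took the opposite sign, at −0.59 and −1.72. Over HFD_sed, Klra7 stood at −1.48 with the 0 UMIs of the 40 HFD_EXE cells set at 3 counts, and its interval ended at −1.10. Klra7 and Klrk1, at −0.86 (−1.21 to −0.52), were called lower. These were 1 of 7 measured members higher and 2 lower, beside 2.78% and 4.65% of all genes. Over S, Klrd1 at −0.72 (−1.20 to −0.25) was the member called lower, beside 4.43% higher and 4.95% lower. For HFD_sed over S, Klre1 was called higher at 0.84 (0.00 to 1.79) and Klra7 at −1.18 (−2.09 to −0.21) and Klrg1 at −0.94 (−1.68 to −0.15) lower, beside 4.37% and 3.18%. The Klre1 call lies at the edge of the rule, with an interval that began at 0.00071 and 13 UMIs in 7 cells of S. The Klra7 call for HFD_sed over S rested on 32 UMIs in 8 cells of HFD_sed and 16 UMIs in 5 cells of S. It was lost at a minimum of 50 UMIs. The Klre1 ratio stood at −0.44 with free RNA subtracted on the profile of the whole library.

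The adaptors through which the activating receptors signal were present in NK-like and ILC1-like cells of each library. Tyrobp, which encodes DAP12, stood at 1662, 2179 and 2046 CPM in NK-like cells of HFD_EXE, HFD_sed and S, 1879, 1999 and 1704 CPM in ILC1-like cells, and 34.8, 37.4 and 51.5 CPM in NKT-like cells. Hcst, which encodes DAP10, was shared with T cells, at 661, 714 and 775 CPM in NK-like and 719, 734 and 885 CPM in NKT-like cells. Fcer1g, the Fc receptor gamma chain, held 1709, 1796 and 1750 CPM in NK-like cells. Of 13 measured genes of a list of adaptors and proximal signalling genes, none was called higher and 2 lower for HFD_EXE over HFD_sed in NK-like cells, Cd247 (the CD3 zeta chain) at −1.05 and Lck (a Src family kinase) at −0.88, beside 2.78% higher and 4.56% lower of all genes. Cd247 stood at 66.1 CPM in HFD_EXE, 137 CPM in HFD_sed and 135 CPM in S. For HFD_sed over S, 0 of 14 were called in either direction, beside 6.87% higher and 4.06% lower.

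Ncr1 and the transcription factor lists differed more. Ncr1, the activating receptor NKp46, stood at 227, 453 and 535 CPM in NK-like cells of HFD_EXE, HFD_sed and S, and 387, 676 and 737 CPM in ILC1-like cells. Eomes, the factor that marks NK cells, stood at 434, 590 and 371 CPM in NK-like cells, against 0, 12.8 and 19.0 CPM in ILC1-like cells. Of 12 measured transcription factors, Tox was called higher and Tbx21, Zeb2 and Runx3 lower for HFD_EXE over HFD_sed in NK-like cells, with Tbx21 (T-bet) at −1.30 and Runx3 at −1.04, 1 and 3 genes beside 2.78% higher and 4.56% lower of all genes. For HFD_sed over S, Eomes, Prdm1, Tcf7 and Ikzf2 were called higher and none lower, beside 6.87% and 4.06%. Of 8 measured effector genes, Ifng (interferon gamma), Ccl3, Ccl4 and Xcl1 were called lower and Gzmb (granzyme B) higher for HFD_EXE over HFD_sed, with Ifng at −2.44 and Ccl4 at −1.59, against the same 4.56% and 2.78%. Of 8 other measured Klr genes, 1 was called lower in that comparison, Klra1 at −3.58, and none higher, again beside 4.56% and 2.78%. In ILC1-like cells, Klra9, an inhibitory Ly49 gene, stood at 359, 42.8 and 81.5 CPM, so HFD_EXE was high there as it was for Klra8.

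Genes for ligands were read over all classes of the same suspensions. H2-T23, which encodes Qa-1, the ligand of CD94 with NKG2A, stood at 311, 251 and 389 CPM in LSEC-like cells and 538, 533 and 370 CPM in pDC-like cells of HFD_EXE, HFD_sed and S. Clec2d, a ligand of the inhibitory receptor encoded by Klrb1b, stood at 324, 463 and 388 CPM in LSEC-like cells. Cdh1, the E-cadherin bound by KLRG1, stood at 407, 454 and 548 CPM in cholangiocyte-like cells and 119, 89.4 and 109 CPM in pDC-like cells. Of the NKG2D ligands, Raet1d, Raet1e and H60c stayed at or below 4.82 CPM in every class, and Ulbp1, which encodes MULT1, stood at 4.84, 25.9 and 6.64 CPM in hepatocyte-like cells.

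Across 36 points, each a class of at least 100 cells in 1 library, the genes whose log2(CPM + 1) went most closely with that of the summed receptors were Sytl3 (Pearson r 0.918), Cd7 (0.917), Arsb (0.905), Il12rb2 (0.902) and Gm14029 (0.893). For single members the nearest genes were Cma1 for Klra4 (0.980), Phactr3 for Klra8 (0.975), Klra3 for Klra7 (0.934) and for Klrg1 (0.947), Xcl1 for Klrb1c (0.933), Sytl3 for Klre1 (0.948), Dnajc15 for Klrk1 (0.934), Cd7 for Klrd1 (0.960) and Samd3 for Klrc1 (0.957). NK-like cells of HFD_EXE and ILC1-like cells of every library had fewer than 100 cells and gave no point. NK-like cells thus entered from HFD_sed and S alone. The points share libraries, and classes differ in depth, so r describes these data without a test.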

How the data were processed

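Per the labels, enzymatically dissociated livers gave 10x Genomics 3′ version 3 libraries, planned at 5000 to 6000 cells each, fewer than the barcodes found. The submitters' processing notes name Cell Ranger 6.1.2 and GRCm39. The deposited values are unnormalized UMI counts. Identifiers sharing a symbol were summed (55357 to 54456). Cells needed 500 UMIs, 300 genes and under 15% mitochondrial UMIs. Scrublet in Scanpy 1.11.5, at a score of 0.219 (the mean of the automatic thresholds of HFD_sed and S, since that of HFD_EXE marked 0 cells), removed 301, 331 and 398 doublets of HFD_EXE, HFD_sed and S. These libraries shared 30 to 43 barcodes per pair. Clustering without Klr genes (2000 variable genes, 30 components, 15 neighbours, Leiden resolution 1) gave 27 clusters, and 5454 lymphocytes were clustered again into 17. Names required 3 or more detected markers, each found in a fraction of 0.2 of the cluster at a log2 fold of 1, and these rebuilt names may differ from the study's. UMIs were summed per class and library. CPM has exact Poisson intervals, ratios exact conditional binomial intervals, shares Clopper-Pearson intervals (SciPy 1.17.1). The calculation was tested on simulated counts. Alternatives changed thresholds, thinning, clustering, doublets, free RNA and weighting. Members and lists were chosen with earlier results of these data known. All 9 members are named, and of other lists up to 4 members with the interval bound farthest from no change, those against the median, and Ncr1 and Eomes. Upstream sequences are RefSeq's (GRCm38.p6), matched by symbol.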

Additional observations from a re-analysis of the deposited data

Results flagged for a closer look

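Klra7 and Klrc1 were called in opposite directions in different classes for HFD_EXE over HFD_sed, and this difference between classes was not tested. The log2 ratio of Klra7 was 2.85 in NKT-like cells, 1.90 in CD8 T-like cluster 4 and −1.48 in CD8 T-like cluster 8. In cluster 8 HFD_EXE had 0 UMIs, which the value sets at 3 counts, and the interval ended at −1.10. The NKT-like and cluster 8 values rest on few cells, 6 and 1 in NKT-like cells of HFD_EXE and HFD_sed and 0 and 8 in cluster 8. The log2 ratio of Klrc1 was −1.13 in NKT-like cells, 0.65 in cluster 4 and 0.68 in cluster 8. In cluster 4, Klra7 lay in 29 of 117 cells of HFD_EXE and 23 of 266 cells of HFD_sed, and Klrc1 in 61 and 98 cells. The signs behind the contrast depend on the processing: Klra7 in NKT-like cells stood at −2.27 with a gate on single transcripts, −0.19 with Klr genes kept in the clustering and −0.13 with free RNA subtracted on the profile of the whole library, and Klrc1 in cluster 8 stood at −0.59 under the last of these. Klrc1 in cluster 4 kept its sign, but its call held under 6 of 9 alternatives, with a lowest log2 ratio of 0.097.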

How the results depend on the processing

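No paired analysis was possible because each group has 1 library, and the replicate number is shared with a library whose matrix was not analysed here. Over the alternatives run, 120 summary values stayed within 1.5 times the main count or within their interval and 18 moved, and 431 member values kept their direction and size, 58 moved and 15 took the opposite sign. Part of the 431 could not move. A ratio of 2, a minimum of 50 UMIs and no minimum changed the rule for calls and not the ratios. Restricting the CD8 T-like class to cluster 4, or the NKT-like class to cluster 1, left the ratios of other classes unchanged. Klrk1 and Klrc1 in NKT-like cells for HFD_EXE over HFD_sed and Klrc1 for HFD_sed over S were called under all 16 alternatives, and Klra7 in cluster 4 under all 9 in both comparisons with HFD_sed. Not all of these could end a call. The alternative without a minimum only loosened the rule, and the mean over cells carried no interval.

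With a ratio of 2 in place of 1.5, the members called in NK-like, ILC1-like and NKT-like cells together numbered 2 for HFD_EXE over S (4 at 1.5) and 3 for HFD_sed over S (6 at 1.5), and in CD8 T-like clusters 4 and 8 they numbered 2 for HFD_EXE over HFD_sed (7), 2 for HFD_EXE over S (4) and 3 for HFD_sed over S (8). With free RNA subtracted on the profile of the whole library, an estimate that took 22.8% to 88.6% of a class, the calls in NK-like, ILC1-like and NKT-like cells numbered 16, 17 and 14 for HFD_EXE over HFD_sed (6), HFD_EXE over S (4) and HFD_sed over S (6), those in the CD8 T-like clusters 9 for HFD_EXE over S, and those lower in NK-like than ILC1-like cells 2 (4). With the profile of the lowest-count barcodes the estimate took 4.58% to 13%. A gate on single transcripts left 6, 20 and 20 NK-like cells; calls for HFD_sed over S then numbered 11, and those higher and lower in NK-like than ILC1-like cells 8 (14) and 1 (4). With Klr genes kept in the clustering, 2 were called for HFD_EXE over S, and centred on the median gene 5 for HFD_sed over S in the CD8 T-like clusters. The share of NK-like cells with any of the 3 Ly49 genes, 65.3%, 66.1% and 77.8% in HFD_EXE, HFD_sed and S, was 75.8% in HFD_sed and 83.9% in S unthinned, and 69.2% in S thinned to 1000 UMIs.

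Opposite signs were found as follows, as log2 ratios, and the cause was not tested. In NKT-like cells, Klra7 stood at −2.27 (gate), −0.19 (Klr genes kept) and −0.13 (whole-library free RNA) for HFD_EXE over HFD_sed, and at 2.32 (gate) and 0.047 (Klr genes kept) for HFD_sed over S. In ILC1-like cells, Klra8 stood at −1.16 (gate) and Klre1 at −0.60 (gate) and −0.65 (whole-library free RNA) for HFD_EXE over S, and Klre1 at −2.38 and −0.31 under these settings for HFD_sed over S. In NK-like cells, Klrg1 stood at 0.20 (gate) for HFD_EXE over S and Klrc1 at −1.12 (whole-library free RNA) for HFD_sed over S. In cluster 8 under whole-library free RNA, Klrc1 stood at −0.59 for HFD_EXE over HFD_sed and −1.72 for HFD_EXE over S, and Klre1 at −0.44 for HFD_sed over S. Resolution 0.5 gave no ILC1-like class, and clusters 4 and 8 have no counterpart in other clusterings or the gate. The depth of 49 NK-like cells in HFD_EXE limits what can be seen there, where 3 UMIs stand for 14.2 CPM.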

Other observations

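Klrg1 and Klra8 were set side by side in NK-like cells thinned to 1500 UMIs. Klrg1 was seen in 21.7%, 10.9% and 12.6% of cells with Klra8 in HFD_EXE, HFD_sed and S, against 7.69%, 8.0% and 29.8% of cells without it, so the order in S was the reverse of that in HFD_EXE. In S the Clopper-Pearson intervals with and without Klra8 were 6.48% to 21.5% and 20.3% to 40.7%, and in each library the intervals overlapped. Of the other Klr genes in NKT-like cells, Klrb1f stood at 143, 46.7 and 71.8 CPM in HFD_EXE, HFD_sed and S, and was called higher for HFD_EXE over HFD_sed and lower for HFD_sed over S. Within NKT-like cluster 1 the levels of Klrb1f were 46.0, 46.4 and 68.8 CPM, and it was not called. Klrc2, which encodes NKG2C, stood at 197, 230 and 105 CPM in NKT-like cells and at 253, 220 and 106 CPM within cluster 1, and was called higher in both high fat diet libraries over S in either setting.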
